A study of Mus musculus with 8 samples.

Results

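Zinc handling was examined in donor-derived myeloid cells of the mouse brain through 10 genes: the importers Slc39a1, Slc39a6, Slc39a7, Slc39a8, Slc39a10 and Slc39a14, the exporters Slc30a1 and Slc30a7, and the metallothioneins Mt1 and Mt2. They were taken from 47242 distinct names on the array, of which 27660 are gene symbols and the rest identifiers that matched no symbol, each counted as a gene below. Members were found by the gene name of each probe or the gene of its RefSeq accession, and all 13 of their probes on 17 spots were read. The genes were selected on the difference in processed signal between Psgl1-/- and Psgl1+/+ arrays, which was already known, so that difference is given for each as a description without a test. All 8 samples came from chimeras, in which DsRed-labelled bone marrow had been transplanted into wild-type mice, and all received 30 min of middle cerebral artery occlusion with reperfusion 7 days before the tissue was taken. In 4 samples the marrow was Psgl1-/- (replicates 5 to 8) and in 4 it was Psgl1+/+ (replicates 1 to 4). Psgl1 is the protein name of Selplg, a leukocyte glycoprotein that binds selectins. Propidium iodide-negative DsRed+ CD11b+ CD45hi cells without Ly6G or CD3 were sorted from the ischemic brain and the RNA of each sample was read on 1 single-colour array. The labels give no age and no number of animals per sample, so errors and p-values measure the spread among these samples alone, part of which may be technical. In such sorted pools, fewer cells that carry an RNA and less of it per cell cannot be told apart.

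Zinc enters the cytosol through proteins of the SLC39 (ZIP) family, from outside the cell or from organelles, and leaves it through most proteins of the SLC30 (ZnT) family, across the plasma membrane or into vesicles. Metallothioneins are small proteins rich in cysteine that bind zinc and copper in the cytosol. The zinc-sensing transcription factor Mtf1 binds metal response elements and induces Mt1, Mt2 and Slc30a1 when free zinc increases. Zinc is stored in synaptic vesicles of the forebrain and is released during ischemia, and macrophages use zinc transport and metallothioneins in inflammation.

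What was read on the array is a short stretch of each RNA, 45 to 57 bases long in these 13 probes, against a median of 51 bases over all probes. Their GC content ran from 31.9% to 65.2%, around a median of 44.4% over all probes. The probes of Mt1 and Mt2 are shown because the proteins are close relatives while the signals differed between arrays. The probes of Slc30a1 and Slc39a8 are shown because each gene had another probe with a different pattern. All 4 run 5′ to 3′ as the scanner files give them.
Mt1 (NM_013602.3): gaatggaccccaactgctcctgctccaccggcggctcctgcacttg
Mt2 (NM_008630.2): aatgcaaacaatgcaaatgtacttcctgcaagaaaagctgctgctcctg
Slc30a1 (XM_006497158.1): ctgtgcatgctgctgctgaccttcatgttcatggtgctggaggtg
Slc39a8 (NM_026228.5): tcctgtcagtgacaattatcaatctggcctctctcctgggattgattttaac
The longest run of bases that the Mt1 and Mt2 probes share is 9 bases.

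Mt1 and Mt2 are neighbours on mouse chromosome 8, and their promoters are shown because both genes are known targets of Mtf1 while their RNAs had unlike profiles over the arrays. The windows of 280 bases run from 250 bases before to 30 bases after the RefSeq start, on the plus strand of build GRCm38.p6. Capitals mark the core of the metal response element, searched as TGCACNC and TGCGCNC on both strands.
Mt1, chr8:94178839-94179118: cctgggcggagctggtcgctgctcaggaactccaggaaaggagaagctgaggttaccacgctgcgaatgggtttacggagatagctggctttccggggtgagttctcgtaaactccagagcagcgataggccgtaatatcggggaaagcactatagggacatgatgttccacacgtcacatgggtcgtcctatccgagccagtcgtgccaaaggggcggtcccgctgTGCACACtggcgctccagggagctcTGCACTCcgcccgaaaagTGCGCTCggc
Mt2, chr8:94172368-94172647: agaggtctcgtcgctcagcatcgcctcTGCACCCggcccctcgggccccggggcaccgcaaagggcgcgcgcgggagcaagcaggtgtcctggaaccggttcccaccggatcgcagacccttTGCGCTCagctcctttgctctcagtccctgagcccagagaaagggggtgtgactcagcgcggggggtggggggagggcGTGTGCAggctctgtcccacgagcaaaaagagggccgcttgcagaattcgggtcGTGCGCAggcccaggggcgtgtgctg
The Mt1 window held 3 cores and the Mt2 window 4. At least 3 cores occurred in 1.73% of the 32851 RefSeq promoters searched in the same way, and at least 4 in 0.405%. The 8 member genes that matched the promoter table had 10 windows, and 4 of the genes had at least 1 core in any window. Counted by single window rather than by gene, 24.1% of all promoters had at least 1 core. Besides Mt1 and Mt2 these were Slc30a1, with 1 core, and Slc39a8, with 1 core in 1 of its windows, whereas Slc39a1, Slc39a7, Slc39a10 and Slc30a7 had none. Slc39a6 and Slc39a14 were not searched. A match describes the letters only and no binding was measured.

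Between 76.2% and 88.2% of gene spots were well above background on Psgl1-/- arrays, against 76.1% to 86.8% on Psgl1+/+ arrays. This share split by slide row, with 86.2% to 88.2% in row 1 and 76.1% to 81.6% in row 2. Each row held 2 arrays of each group. The 75th percentile of the signal was 833.3 to 958.8 intensity units on Psgl1-/- arrays and 525.8 to 748.6 on Psgl1+/+ arrays, and every array was scaled to the same 75th percentile before the comparison. Values below are log2 signals on that scale, and differences are Psgl1-/- minus Psgl1+/+ from limma over 42312 tested genes, each with its standard error (SE). After scaling, the median difference over all tested genes was -0.33, and 31.1% of them had a positive difference. Selplg, the deleted gene, read 12.88 to 13.45 on the Psgl1-/- arrays (mean 13.18 ± 0.24, SD, n = 4) and 12.68 to 15.74 on the Psgl1+/+ arrays (mean 13.81 ± 1.36, SD, n = 4). Its only probe had a stop codon in all 6 reading frames and could not be placed relative to the deletion, so it does not check the labels. All 8 markers of the sorted cells (Itgam, Ptprc, Csf1r, Lyz2, Cd68, Adgre1, Aif1 and Tyrobp) were well above background on all 8 arrays, with a summed level of 16.45 to 17.46 in Psgl1-/- and 16.37 to 17.47 in Psgl1+/+. All 6 neuronal markers were also above background on every array, and their summed level was 16.60 to 16.96 in Psgl1-/- against 17.13 to 17.76 in Psgl1+/+, without overlap. Of these 6, 5 had a lower and 1 a higher mean in Psgl1-/-. The sum adds linear signals, and its brightest genes were Snap25 (15.67 to 15.99 against 16.15 to 16.85) and Syt1 (15.22 to 15.73 against 15.86 to 16.4). Snap25, Syt1 and Slc17a7 did not overlap between the groups, while Rbfox3, Tubb3 and Gad1 did. Among single tested genes, 10.8% were lower in Psgl1-/- without overlap, a share that is no measure for a sum. Under the other scalings that share was 2.51% to 6.14%, and the sum was not recomputed there. Detection was not particular to neuronal markers. All 5 microglial, all 6 oligodendrocyte and all 4 erythroid markers on the array were above background on every array. So were 5 of 6 astrocyte and 5 of 6 endothelial markers. The summed levels of these microglial, astrocyte, oligodendrocyte, endothelial and erythroid markers overlapped between the groups. Of the 4 genes that the sort gated against, Ly6g was above background on all 4 Psgl1-/- arrays and 3 Psgl1+/+ arrays, and Cd3d, Cd3e and Cd3g were above it on all 8.

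Among the importers, Slc39a6 stood apart. Slc39a6 encodes ZIP6, a plasma membrane importer that can pair with ZIP10. Its single probe read 10.77, 10.16, 10.76 and 10.24 in Psgl1-/- replicates 5 to 8, against 5.53, 5.60, 6.25 and 5.66 in Psgl1+/+ replicates 1 to 4. Every Psgl1-/- array was above every Psgl1+/+ array, and the probe was well above background on all 8. The means were 10.48 ± 0.33 in Psgl1-/- and 5.76 ± 0.33 in Psgl1+/+ (SD, n = 4 each), a difference of 4.72 (SE 0.29), or 26.4-fold. Before scaling, the Psgl1+/+ readings were 35.5 to 62.3 intensity units, below the Psgl1+/+ array medians of 100.1 to 143.9. At such low signals the fold depends on the background correction. The SD within groups, pooled over both, was 0.33, and 15.4% of tested genes had a smaller one. With 1 probe per gene, Slc39a6 was the only one of the 42312 tested genes past an adjusted p of 0.05 (0.00236% of genes). When every probe was fitted on its own, 9 of 51203 probes passed, all higher in Psgl1-/-. The set was chosen with the passing of Slc39a6 known, so nothing is read from it. Among members, groups did not overlap in 1 of 10 towards higher values, where 0.65% of all genes were so placed, and in 0 of 10 towards lower values, where 10.8% of all genes were.

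**Figure D1:**
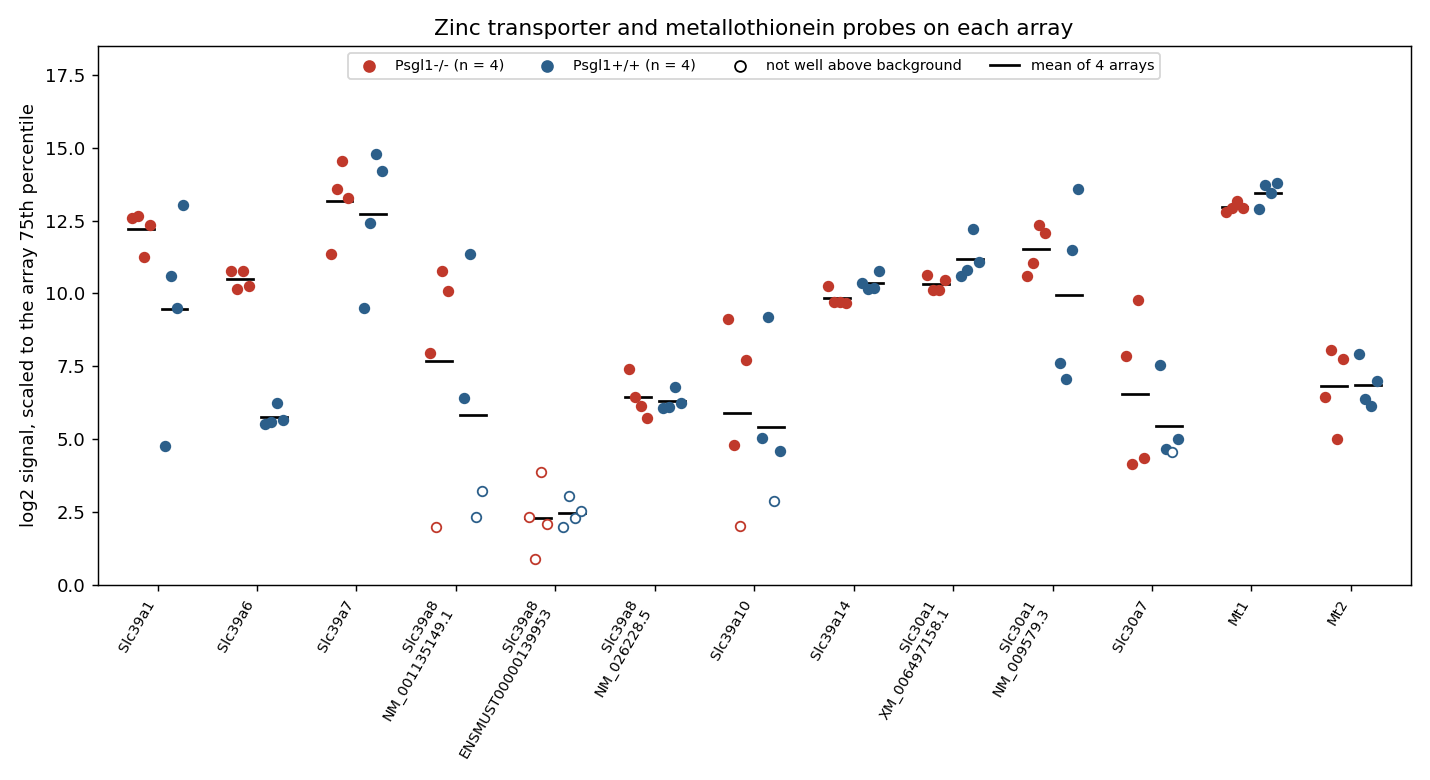
Log2 signal of each of the 13 probes of the zinc genes on each array (y axis), with Psgl1-/- arrays left of Psgl1+/+ arrays for each probe (x axis), bars at the group means and open points for readings not well above background. Slc39a6 separates the genotypes (means 10.48 and 5.76), while the points of Slc39a8, Slc39a10 and Slc39a1 are widely spread within a genotype.

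The difference of Slc39a6 was recomputed under 17 other ways of processing the arrays. It lay between 3.81 and 5.0. It was 3.81 with normexp background correction (offset 50) and quantile normalization, against 4.85 with quantile normalization alone. The other filters, slide row as a block and the mean of probes could not change this difference, which stayed at 4.72. With any 1 array left out, it was 4.63 to 4.89. Without Psgl1-/- replicate 5 or 7, or Psgl1+/+ replicate 1 or 2, Slc39a6 no longer passed the threshold over all genes, although the difference stayed at that size.

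**Figure D2:**
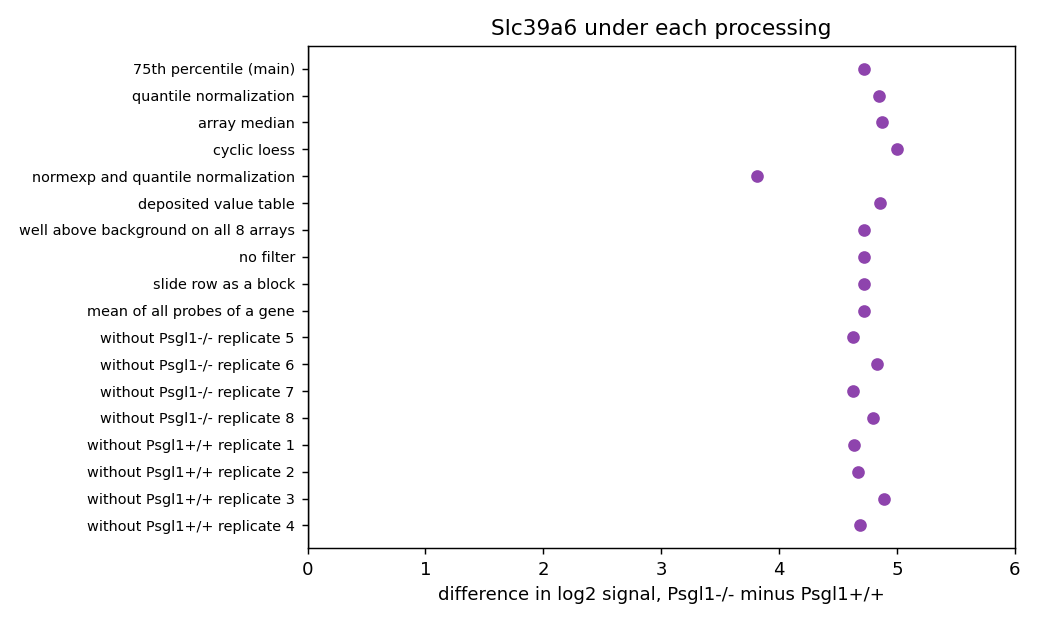
Difference in log2 signal of Slc39a6, Psgl1-/- minus Psgl1+/+ (x axis), under each way of processing the arrays and with each array left out (rows). All points lie between 3.81 and 5.0, and normexp background correction gives the lowest.

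Slc39a1 encodes ZIP1, a plasma membrane importer found in most tissues. It read 12.59, 12.66, 11.26 and 12.34 in Psgl1-/- replicates 5 to 8, against 4.76, 10.59, 9.51 and 13.04 in Psgl1+/+ replicates 1 to 4. The Psgl1-/- arrays lay close together, and the Psgl1+/+ arrays ran from below to above all of them. The means were 12.21 ± 0.65 in Psgl1-/- and 9.48 ± 3.47 in Psgl1+/+ (SD, n = 4 each), with a difference of 2.74 (SE 1.58). Without Psgl1+/+ replicate 1 the difference was 1.17.

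The Slc39a1 probe was printed on 5 spots of each array, which separates the spread within an array from that between arrays. The mean signal of the 5 spots, before scaling, was 7097.5, 7508.6, 2725.4 and 6639.2 intensity units in Psgl1-/- replicates 5 to 8 and 25.1, 1542.6, 596.1 and 5906.3 in Psgl1+/+ replicates 1 to 4. The highest array was 2.8 times the lowest among Psgl1-/- arrays and 235.3 times the lowest among Psgl1+/+ arrays. Within an array the coefficient of variation over the 5 spots was 1.1% to 6.3% on 7 arrays. It was 28.7% on Psgl1+/+ replicate 1, where 3 of 5 spots were well above background. On all 8 arrays the spots lay far closer to each other than the Psgl1+/+ arrays did. What sets the arrays apart was not tested.

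**Figure D3:**
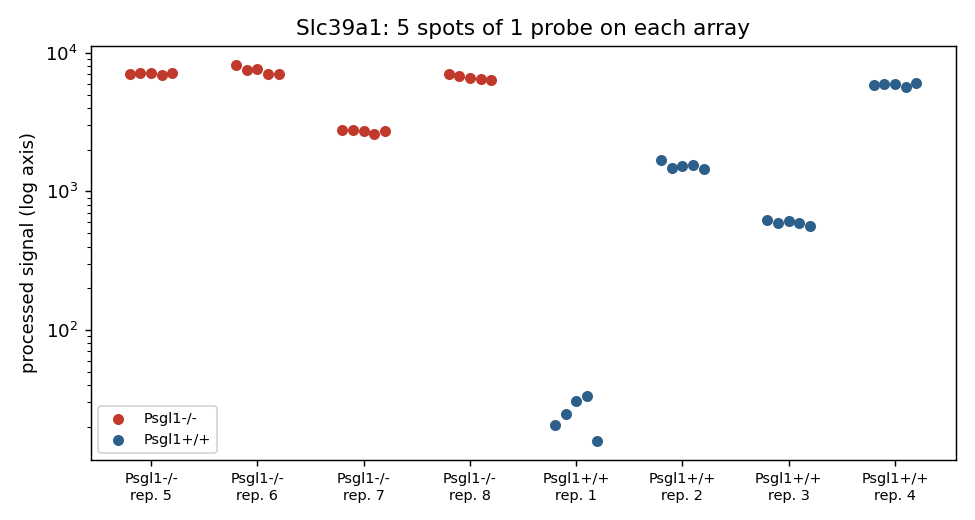
Signal of the 5 Slc39a1 spots on each array in intensity units on a log axis, with Psgl1-/- arrays left of Psgl1+/+ arrays. Spots of an array lie close together except on Psgl1+/+ replicate 1, where they run from 15.8 to 33.3, while the array means run from 2725.4 to 7508.6 in Psgl1-/- and from 25.1 to 5906.3 in Psgl1+/+.

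Slc39a7 encodes ZIP7, which releases zinc from the endoplasmic reticulum and Golgi. It read 11.35, 13.60, 14.54 and 13.27 in Psgl1-/- replicates 5 to 8, against 9.49, 12.42, 14.78 and 14.22 in Psgl1+/+ replicates 1 to 4. The groups overlapped over most of their range, and the lowest array of each group was well below its others. The means were 13.19 ± 1.34 in Psgl1-/- and 12.73 ± 2.38 in Psgl1+/+ (SD, n = 4 each), a difference of 0.46 (SE 1.22) that became -0.62 without Psgl1+/+ replicate 1.

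Slc39a8 encodes ZIP8, which carries zinc and manganese across membranes. Its probe with the highest mean, NM_001135149.1, read 7.94, 1.99, 10.78 and 10.07 in Psgl1-/- replicates 5 to 8, against 6.42, 11.35, 2.31 and 3.23 in Psgl1+/+ replicates 1 to 4. Psgl1-/- replicate 6 and Psgl1+/+ replicates 3 and 4 were not well above background, so those readings are bounds. The means were 7.70 ± 3.99 in Psgl1-/- and 5.83 ± 4.08 in Psgl1+/+ (SD, n = 4 each), a difference of 1.87 (SE 2.53). It was 3.77 without Psgl1-/- replicate 6, 0.70 and 1.00 without Psgl1+/+ replicate 3 and 4, and 0.23, 0.38 and 0.07 without Psgl1-/- replicate 7, Psgl1-/- replicate 8 and Psgl1+/+ replicate 2, where the NM_026228.5 probe became the brighter one. The pooled SD within groups of 4.03 was larger than that of 99.2% of tested genes. The NM_026228.5 probe, whose sequence is given above, read 7.42, 6.45, 6.14 and 5.72 in Psgl1-/- replicates 5 to 8, against 6.07, 6.09, 6.78 and 6.23 in Psgl1+/+ replicates 1 to 4. It was above background on all 8 arrays with overlapping groups and a difference of 0.14 (SE 0.41). The 2 probes thus disagreed on which arrays were high. A further probe for ENSMUST00000139953, placed by the files at chr3:135522465-135522524 of build mm9, was above background on 0 of 8 arrays.

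Slc39a10 encodes ZIP10, the plasma membrane partner of ZIP6. It read 9.12, 4.79, 2.03 and 7.70 in Psgl1-/- replicates 5 to 8, against 5.03, 9.19, 2.87 and 4.58 in Psgl1+/+ replicates 1 to 4. Psgl1-/- replicate 7 and Psgl1+/+ replicate 3 were not well above background, and each group held 1 array near 9. The means were 5.91 ± 3.15 in Psgl1-/- and 5.41 ± 2.68 in Psgl1+/+ (SD, n = 4 each), a difference of 0.49 (SE 1.84). With 1 array left out it ran from -0.58, without Psgl1-/- replicate 5, to 1.79, without Psgl1-/- replicate 7. The groups overlapped, unlike those of Slc39a6, and an SE this wide leaves the size of any difference unresolved.

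Slc39a14 encodes ZIP14, which carries zinc, iron and manganese and is induced in the liver in inflammation. It read 10.26, 9.72, 9.72 and 9.66 in Psgl1-/- replicates 5 to 8, against 10.35, 10.17, 10.20 and 10.78 in Psgl1+/+ replicates 1 to 4. The groups overlapped through Psgl1-/- replicate 5 alone, whose reading lay within the Psgl1+/+ range. The means were 9.84 ± 0.28 in Psgl1-/- and 10.37 ± 0.28 in Psgl1+/+ (SD, n = 4 each), a difference of -0.53 (SE 0.26), beside -0.33 for the median gene. Under other scalings the difference was as small as -0.30, and it was negative in all 17 alternatives. The neuronal marker sum was lower in Psgl1-/- too, as given above, and its part in this and the other lower readings was not tested.

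Of the exporters, Slc30a1 encodes ZnT1, which moves zinc out of the cell across the plasma membrane. Its XM_006497158.1 probe read 10.64, 10.13, 10.12 and 10.47 in Psgl1-/- replicates 5 to 8, against 10.60, 10.79, 12.23 and 11.07 in Psgl1+/+ replicates 1 to 4. The groups overlapped by a narrow margin, and Psgl1+/+ replicate 3 was the highest array. The means were 10.34 ± 0.26 in Psgl1-/- and 11.17 ± 0.73 in Psgl1+/+ (SD, n = 4 each), a difference of -0.83 (SE 0.40). The NM_009579.3 probe of the same gene read 10.61, 11.06, 12.35 and 12.09 in Psgl1-/- replicates 5 to 8, against 7.62, 7.06, 11.49 and 13.59 in Psgl1+/+ replicates 1 to 4. There the difference was 1.59 (SE 1.45), of opposite sign, and the Psgl1+/+ arrays spanned the whole range of the Psgl1-/- arrays. The direction for Slc30a1 thus rested on the probe, and no direction is given for the gene. With Psgl1+/+ replicate 1, 2 or 3 left out, NM_009579.3 became the probe with the highest mean and the gene's difference was 0.81, 0.63 or 2.10.

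Slc30a7 encodes ZnT7, which loads zinc into the Golgi. It read 7.84, 4.16, 9.79 and 4.36 in Psgl1-/- replicates 5 to 8, against 7.56, 4.67, 4.55 and 5.0 in Psgl1+/+ replicates 1 to 4. Each group held at least 1 array above 7 and at least 2 at or below 5, and Psgl1+/+ replicate 3 was not well above background. The means were 6.54 ± 2.75 in Psgl1-/- and 5.45 ± 1.42 in Psgl1+/+ (SD, n = 4 each), a difference of 1.09 (SE 1.38). With 1 array left out it ran from 0.01, without Psgl1-/- replicate 7, to 1.89, without Psgl1-/- replicate 6.

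Of the metallothioneins, Mt1 was bright on every array. It read 12.79, 12.93, 13.19 and 12.93 in Psgl1-/- replicates 5 to 8, against 12.90, 13.73, 13.44 and 13.79 in Psgl1+/+ replicates 1 to 4. Psgl1+/+ replicate 1 lay within the Psgl1-/- range and the other 3 Psgl1+/+ arrays above it. The means were 12.96 ± 0.16 in Psgl1-/- and 13.47 ± 0.41 in Psgl1+/+ (SD, n = 4 each), a difference of -0.50 (SE 0.28). It was negative in all 17 alternatives but shrank to -0.16 with cyclic loess, where the median gene stood at -0.01.

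Mt2 read 6.43, 8.06, 4.99 and 7.74 in Psgl1-/- replicates 5 to 8, against 7.93, 6.39, 6.12 and 7.01 in Psgl1+/+ replicates 1 to 4. The groups overlapped, and both the highest and the lowest array were Psgl1-/-. The means were 6.81 ± 1.40 in Psgl1-/- and 6.86 ± 0.80 in Psgl1+/+ (SD, n = 4 each), a difference of -0.05 (SE 0.74) whose sign changed with the scaling (-0.05 to 0.28). With 1 array left out it ran from -0.47, without Psgl1-/- replicate 6, to 0.55, without Psgl1-/- replicate 7. Mt2 varied more within groups than Mt1, with pooled SDs of 1.14 and 0.31.

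Over the 10 genes, 6 differences were positive and 4 negative, with a median of 0.48 beside -0.33 over all tested genes. That count takes Slc30a1 by its brighter probe, whose sign the other probe does not share, and with the mean of each gene's probes 7 differences were positive. Where a probe had to be above background on all 8 arrays, 3 were positive, with Slc39a8, Slc39a10 and Slc30a7 not tested. The genes were chosen on this contrast, so the counts and the median are a description. The pooled SD within groups was above the 75th percentile of all tested genes (1.49) for 5 members, namely Slc39a1, Slc39a7, Slc39a8, Slc39a10 and Slc30a7. It was below the 25th percentile (0.42) for Slc39a6, Slc39a14 and Mt1, with Slc30a1 and Mt2 between them.

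**Figure D4:**
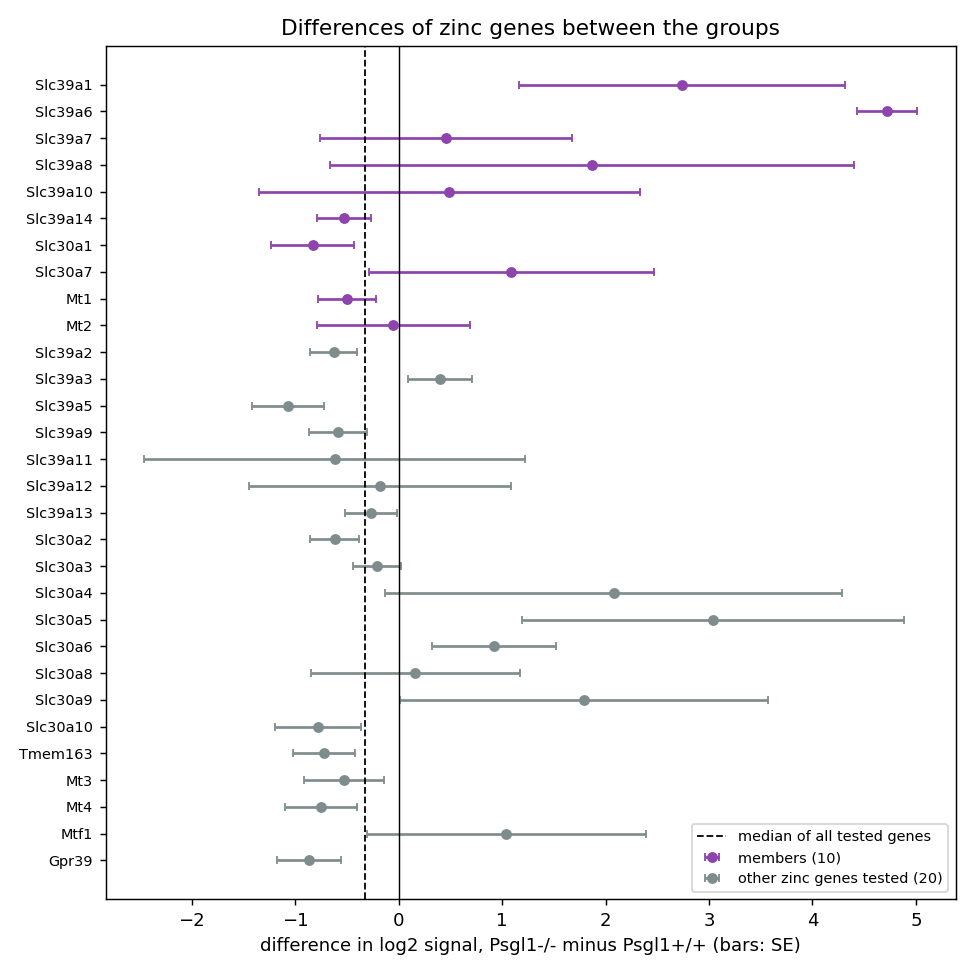
Difference in log2 signal, Psgl1-/- minus Psgl1+/+ (x axis), with bars of 1 SE, for the leading probe of each of the 10 genes and of the other zinc genes (rows). Slc39a6 at 4.72 has a short bar, Slc39a8 at 1.87 has a bar of 2.53, and the other zinc genes run from -1.07 to 3.04.

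**Figure D5:**
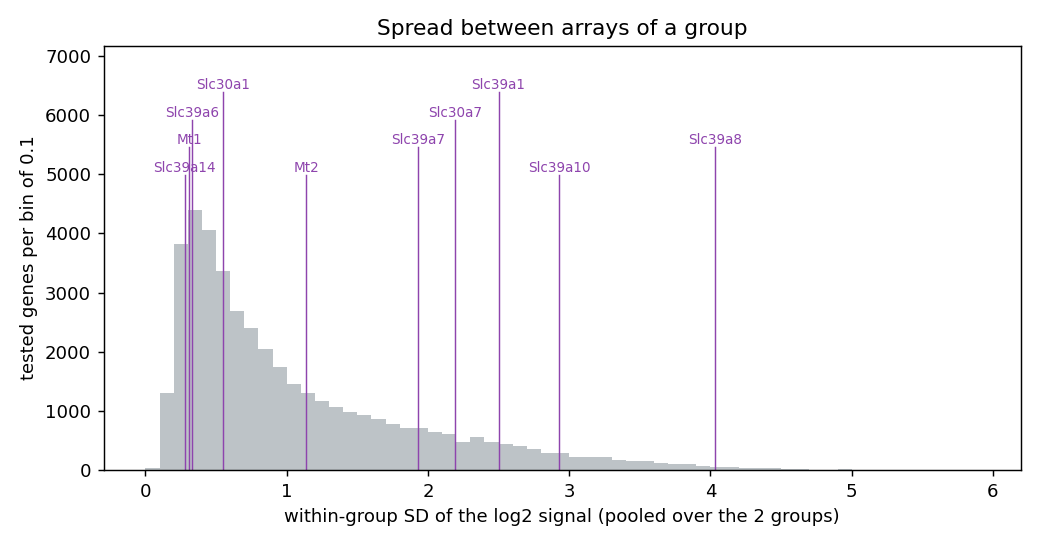
Pooled SD within groups in log2 units for each of the 10 genes, beside the distribution over all 42312 tested genes. Slc39a8 (4.03), Slc39a10 (2.93) and Slc39a1 (2.50) lie at the wide end, while Slc39a14 (0.28), Mt1 (0.31) and Slc39a6 (0.33) lie at the narrow end.

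The rest of the pathway was taken as 21 further genes, namely the other SLC39 and SLC30 transporters, Tmem163, Mt3, Mt4, Mtf1 and the zinc receptor gene Gpr39. Of these, 20 were tested and Slc39a4 was not. With limma, 0 of 20 passed an adjusted p of 0.05 in either direction. The lowest adjusted p was 0.459, and 5 had an unadjusted p under 0.05, where 10.8% of all tested genes did. Their differences had a median of -0.40, with 7 positive and 13 negative. Groups did not overlap for 4 of the 20, all towards lower values in Psgl1-/-, where 10.8% of all tested genes were so placed. These were Slc39a2 (8.79 ± 0.23 in Psgl1-/- and 9.43 ± 0.13 in Psgl1+/+), Slc39a5 (6.87 ± 0.45 and 7.95 ± 0.47), Slc30a2 (11.19 ± 0.24 and 11.81 ± 0.17) and Tmem163 (14.38 ± 0.14 and 15.11 ± 0.50; SD, n = 4 each), the last a zinc transporter of synaptic vesicles. Their differences were -0.63, -1.07, -0.62 and -0.72, and over the scalings the smallest were -0.39, -0.68, -0.37 and -0.27. A second probe of Slc39a2 (XM_006518796.1) had overlapping groups and a difference of 0.13 (SE 0.66), and the mean of that gene's probes gave -0.25. Under 5 other scalings, 1 to 3 of the 20 had groups without overlap towards lower values, where 2.51% to 6.14% of all tested genes did. With 1 array left out the count was 4 to 8 of 20. It was 7 without Psgl1-/- replicate 6, beside 17.1% of all genes, and 8 without Psgl1+/+ replicate 3, beside 16.1%. Mtf1, the sensor upstream of the metallothioneins, differed by 1.04 (SE 1.35), which its spread does not resolve. A second Mtf1 probe had means of 1.77 in Psgl1-/- and 4.67 in Psgl1+/+, in the other direction. It was above background on 0 Psgl1-/- arrays and 1 Psgl1+/+ array, and was not tested.

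The tested genes with the most similar profiles were sought for Slc39a6, Mt1 and Mt2, by the root mean square difference over the 8 arrays between profiles centred on their means. For Slc39a6, whose own profile had a root mean square of 2.38, they included Exosc3 (0.65), which encodes a subunit of the RNA exosome, and Gm4961 (0.66). Both also separated the genotypes, with differences of 4.59 and 4.38. Since Slc39a6 was picked for this contrast, these are a description. For Mt1, with a root mean square of 0.37, the nearest were Msantd1 (0.10), Ffar3 (0.11) and Zfp382 (0.13), and for Mt2, at 0.99, they were Spice1 (0.33), 1700095A13Rik (0.34) and Drc7 (0.37). Mt1 and Mt2 shared none of these profiles. Their unlike root mean squares (0.37 and 0.99) fixed that in advance, so nothing is read from it.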

How the data were processed

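Per the labels' protocols, total RNA of 8 sorted samples was amplified from random primers and labelled with cyanine 3. Per the file headers, each was read on 1 single-colour Agilent array with a mouse build named mm9. The deposited scanner files give each spot's intensity on a linear scale, corrected for background by Feature Extraction but not scaled between arrays, per the file headers. A value table deposited by the authors holds linear intensity, with a median of 132.9 in the column of Psgl1+/+ replicate 1. How it was made is not stated in the sources used here, and only alternatives drew on it. The 8 arrays shared 1 slide and 1 scan. Each of 2 slide rows held 2 arrays of each group, whereas the groups lay in different slide columns, which cannot be told apart from genotype.

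Control spots and outlier gene spots (25 to 149 outliers per array) were left out, no gene spot was saturated, and replicate spots were averaged per probe. Names were found for 67.1% of 60273 probes through the files or RefSeq accessions. Log2 intensity was scaled to the array's 75th percentile over gene spots, with no pseudocount. A gene was its probe with the highest mean, kept where that probe was called well above background on 4 or more of 8 arrays. Differences were fitted in R 4.3.3 with limma 3.58.1 (lmFit, eBayes). P-values were adjusted by Benjamini-Hochberg over 42312 genes at a two-sided threshold of 0.05, and the fit was tested on simulated data. Probes were fitted in the same way. Software also included the data.table package (version 1.17.8), pandas 2.3.3, numpy 2.4.6, matplotlib 3.10.9 and Python 3.11.15. The number of arrays limits the precision. The alternatives covered scaling, background correction, the value table, the filter, slide row, the mean of probes and each array left out. Named genes were the 10 members with every probe, other zinc genes without overlap, Selplg, and 3 nearest profiles for Slc39a6, Mt1 and Mt2, of which 1 for Slc39a6 is not reported here. Members and lists were chosen with earlier results of these data known. RefSeq promoters are of GRCm38.p6, which is not the files' build, so probes were not placed in exons or UTRs.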

Additional observations from a re-analysis of the deposited data

Results flagged for a closer look

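In 2 of 24 groups of 4 arrays, 1 array lay far from the other 3 by Dixon's test of the gap over the range, and chance gives about 1 such group in 20. Slc39a14 read 10.26 on Psgl1-/- replicate 5, against 9.66 to 9.72 on the other Psgl1-/- arrays. Slc30a7 read 7.56 on Psgl1+/+ replicate 1, against 4.55 to 5.0 on the other Psgl1+/+ arrays.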

How the results depend on the processing

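Of all tested genes, 1 passed the threshold, and 4 did with cyclic loess, 7 when a probe had to be above background on all 8 arrays, 2 with slide row as a block, 5 with the mean of a gene's probes, and 0 to 12 with 1 array left out. The count was 0 without Psgl1-/- replicate 5 or 7 or Psgl1+/+ replicate 1, where 759, 746 and 600 genes had a positive and 3121, 2019 and 2847 a negative difference at an unadjusted p under 0.05 with limma. It was 12 without Psgl1-/- replicate 6, 2 without Psgl1-/- replicate 8, 10 without Psgl1+/+ replicate 3 and 4 without Psgl1+/+ replicate 4. Slc39a6 was among the genes past the threshold in 14 of 18 ways of processing. Because it was chosen on this contrast, nothing is read from that count. Its difference was 3.81 with normexp and quantile normalization. The other 15 differences gave 250 recomputed values, of which 238 moved by less than 1 SD and 17 changed sign, among them Slc30a1 at 0.38 with the mean of its probes. The SD was each gene's or probe's own within groups. A move of Slc39a8 from 1.87 to 3.77, without Psgl1-/- replicate 6, thus counted among the 238. Dropping the filter or adding slide row as a block could not move a difference, so the 238 do not measure stability. Slc39a8, Slc39a10 and Slc30a7 were not tested where all 8 arrays had to be above background. The count of other zinc genes past the threshold was 0 in all 17 alternatives. The median difference of all genes was -0.33 and lay between -0.18 and -0.01 under the other scalings. No paired analysis was possible because the groups share no replicate number. Readings not well above background limit Slc39a8, Slc39a10 and Slc30a7.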
